A study of Homo sapiens with 3 samples.

Results

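The genes described here are 58 genes of the G2 phase and of mitosis, taken by name from a fixed list out of 19974 protein-coding genes of chromosomes 1 to 22 and X. A peak was assigned to a gene where its summit lay inside the gene or within 5 kb of either end. By this rule 30 of the 8271 peaks of replicate 2 and 41 of the 11502 peaks of replicate 3 belonged to the 58 genes. The antibody G-5 against FOXM1 was used on chromatin of Huh7, a human line established from a hepatocellular carcinoma and left untreated here, giving 2 ChIP-seq libraries that the titles number as replicates 2 and 3. No peak list of the third sample, an input library, was used here. Whether separate cultures lay behind the libraries is not stated, so that agreement between them may be technical. No control antibody and no FOXM1-depleted cells were among the samples. Each library had its own peak list, in which fold enrichment (the linear ratio of the summit over its local background) and −log10 q are the authors' values.

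FOXM1, a member of the forkhead family of transcription factors, activates genes whose expression peaks in the G2 and M phases. At many of their promoters it is known to be brought in by the MuvB complex together with B-MYB, and the MuvB subunit LIN54 reads a short promoter element, the cell cycle genes homology region (CHR). NF-Y, which reads CCAAT boxes, is known to act at many of the same promoters. The 58 genes act in entry into mitosis, spindle assembly, chromosome attachment, the onset of anaphase and cytokinesis.

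Peaks were called at the mitotic genes about as often as at protein-coding genes in general. In replicate 2, 22 of the 58 genes had a peak (37.9%, exact 95% interval 25.5 to 51.6), against 33.3% of all protein-coding genes. In replicate 3, 26 had one (44.8%, 31.7 to 58.5), against 41.3% of all. A shared locus, meaning overlapping peaks of both libraries with both summits in the window, was found at 15 genes (25.9%, 15.3 to 39.0), against 25.5% of all. Of the remaining genes, 6 had peaks in replicate 2 only, 10 in replicate 3 only, GTSE1 had peaks in both that did not overlap, and 26 had none in either. A peak in either library was present at 32 genes (55.2%), against 46.2% of all protein-coding genes. Of the genes with any peak, 46.9% of the mitotic genes and 55.2% of all protein-coding genes had a shared locus. The median length was 29390 bp for the 58 genes and 24170.5 bp for all, so the windows were somewhat longer. Among peaks of −log10 q 5 or more the shared count was 6, and without the flanks of 5 kb it was 8. The difference from the share of all other protein-coding genes was 3.99 percentage points under the q limit and -2.34 without the flanks.

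Within 1 kb of a gene start the counts were again near the background. A start was taken from RefSeq for 51 of the 58 genes. For AURKA, TTK, BIRC5, UBE2C, TPX2, FAM83D and RACGAP1 either end of the gene stood in its place, as it did for every protein-coding gene with no start in the table. A start was given for 15812 of all 19974 genes, so either end was used for a larger share of all genes than of the 58. With either end used for every gene, the share with a shared locus within 1 kb differed from other genes by 1.78 percentage points. Each library had a peak there at 20 of the 58 genes (34.5%, 22.5 to 48.1), against 26.4% of all genes in replicate 2 and 33.5% in replicate 3. A shared locus lay there at 12 genes (20.7%, 11.2 to 33.4), against 20.0% of all. A peak there in either library was present at 28 genes (48.3%), against 38.0% of all. These 12 made up 80.0% of the mitotic genes with a shared locus, and the same share was 78.5% over all protein-coding genes.

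**Figure D1:**
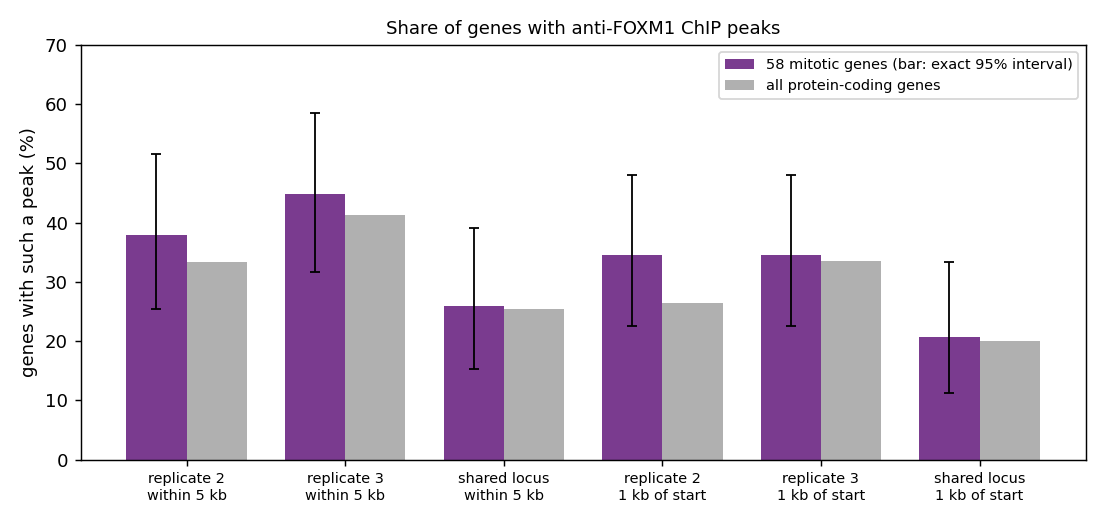
Share of genes (%) with an anti-FOXM1 ChIP peak under each rule, for the 58 mitotic genes (purple, with exact 95% intervals) and for all 19974 protein-coding genes (grey). The purple and grey bars were 20.7% and 20.0% for shared loci within 1 kb of a start, and 34.5% and 26.4% for replicate 2 peaks there. The genes were taken by name and not drawn at random, so the intervals are descriptive and no difference was tested.

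The promoters below show what the start peaks lay on. They are RefSeq windows (GRCh38.p14) of 300 bases, 250 before and 50 from the start, read 5′ to 3′ on the strand of the gene, so that the start is base 251. Capitals mark matches on either strand to any of 4 kinds of motif. The CHR element was searched as TTTGAA and, in its less common spelling, as TTCGAA. The CCAAT box was searched by the letters of its name, and the forkhead motif was spelled TGTTTAC. The E2F motif had 4 spellings, one being TTCCCGC and another, with a changed middle, TTCGCGC. Another spelling used in this search was TTGCCGC, while the last of them was written TTGGCGC. Of the first listed window of each gene, the first 5 shown are those that held the summits of both libraries with the highest lower fold. Windows at further starts of a gene, such as those of LMNB1 and CDC25B, were not ranked. The last 3, CCNB2, CDK1 and PLK1, are shown for contrast, as promoters of mitotic regulators where neither library had a peak. MKI67 lies at chr10:128126374-128126673 on the minus strand, and its summits fell on base 256 in replicate 2 and base 233 in replicate 3. CCNA2 lies at chr4:121823834-121824133 on the minus strand, with summits on bases 222 and 235. CDC25B lies at chr20:3786701-3787000 on the plus strand, with summits on bases 165 and 85. CCNF lies at chr16:2429197-2429496 on the plus strand, with summits on bases 24 and 41. CENPF lies at chr1:214602945-214603244 on the plus strand, with summits on bases 107 and 270. CCNB2 lies at chr15:59104896-59105195, CDK1 at chr10:60778081-60778380 and PLK1 at chr16:23678639-23678938, each on the plus strand.
MKI67: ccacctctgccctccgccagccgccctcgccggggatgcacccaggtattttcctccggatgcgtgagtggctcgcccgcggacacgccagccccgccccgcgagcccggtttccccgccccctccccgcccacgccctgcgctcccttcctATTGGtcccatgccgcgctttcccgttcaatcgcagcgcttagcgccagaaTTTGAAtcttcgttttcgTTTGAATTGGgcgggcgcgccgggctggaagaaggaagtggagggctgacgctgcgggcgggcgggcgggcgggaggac
CCNA2: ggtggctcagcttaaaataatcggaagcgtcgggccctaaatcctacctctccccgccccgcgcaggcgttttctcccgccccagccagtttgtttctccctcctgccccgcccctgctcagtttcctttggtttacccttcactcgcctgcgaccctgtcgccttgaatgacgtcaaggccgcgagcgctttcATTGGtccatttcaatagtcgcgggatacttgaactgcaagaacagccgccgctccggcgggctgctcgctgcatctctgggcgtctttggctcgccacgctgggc
CDC25B: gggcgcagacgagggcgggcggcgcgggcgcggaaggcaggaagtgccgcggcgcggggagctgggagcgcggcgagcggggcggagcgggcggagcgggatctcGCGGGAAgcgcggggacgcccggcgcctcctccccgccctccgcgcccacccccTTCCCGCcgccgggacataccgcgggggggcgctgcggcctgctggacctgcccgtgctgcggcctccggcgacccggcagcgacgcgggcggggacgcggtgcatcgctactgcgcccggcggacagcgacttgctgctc
CCNF: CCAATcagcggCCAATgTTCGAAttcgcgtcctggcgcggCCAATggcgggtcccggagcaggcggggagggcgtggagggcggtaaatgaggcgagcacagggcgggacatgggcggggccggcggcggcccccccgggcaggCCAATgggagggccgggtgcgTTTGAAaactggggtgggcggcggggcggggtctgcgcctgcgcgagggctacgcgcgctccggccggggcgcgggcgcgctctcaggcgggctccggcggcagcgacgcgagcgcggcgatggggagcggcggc
CENPF: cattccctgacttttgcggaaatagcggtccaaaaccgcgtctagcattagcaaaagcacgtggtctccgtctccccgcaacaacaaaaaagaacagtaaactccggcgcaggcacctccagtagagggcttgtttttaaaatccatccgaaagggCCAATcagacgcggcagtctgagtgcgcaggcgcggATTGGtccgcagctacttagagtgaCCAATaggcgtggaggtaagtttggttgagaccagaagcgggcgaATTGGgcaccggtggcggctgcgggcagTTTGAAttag
CCNB2: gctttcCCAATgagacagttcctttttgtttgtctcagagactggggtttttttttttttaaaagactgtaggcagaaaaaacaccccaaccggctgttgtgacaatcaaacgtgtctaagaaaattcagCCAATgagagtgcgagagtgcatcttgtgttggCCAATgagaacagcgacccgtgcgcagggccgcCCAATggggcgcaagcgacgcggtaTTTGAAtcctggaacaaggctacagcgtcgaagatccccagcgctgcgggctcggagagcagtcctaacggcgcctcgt
CDK1: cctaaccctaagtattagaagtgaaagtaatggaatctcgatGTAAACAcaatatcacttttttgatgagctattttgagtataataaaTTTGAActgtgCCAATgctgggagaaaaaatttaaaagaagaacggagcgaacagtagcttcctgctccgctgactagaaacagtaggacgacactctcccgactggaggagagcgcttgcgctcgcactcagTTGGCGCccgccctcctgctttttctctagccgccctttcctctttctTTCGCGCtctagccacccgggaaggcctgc
PLK1: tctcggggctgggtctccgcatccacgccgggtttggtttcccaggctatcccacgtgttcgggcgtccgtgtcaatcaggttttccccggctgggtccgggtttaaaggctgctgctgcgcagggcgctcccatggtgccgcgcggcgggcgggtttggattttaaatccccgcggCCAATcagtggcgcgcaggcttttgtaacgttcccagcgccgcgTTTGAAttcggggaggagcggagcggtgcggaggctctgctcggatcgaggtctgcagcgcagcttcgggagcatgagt

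Among these 8 windows, MKI67 held a pair of CHR matches, one of which ran into a CCAAT box, and CCNF held 4 CCAAT boxes and both spellings of the CHR. The window of CDC25B held E2F matches and no match to the CHR or CCAAT spellings searched. That of CCNA2 had a CCAAT box as its only match. Other CHR spellings were not searched, so neither window is shown to lack a CHR. CCNB2 and PLK1, where no peak was called, each held a CHR match starting 29 bases before the start, downstream of at least one CCAAT box. CDK1 held the only match to the forkhead spelling TGTTTAC among the promoters of the 51 mitotic genes with a RefSeq window.

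The counts by role below concern small groups and stand beside 25.5% of all protein-coding genes with a shared locus and 46.2% with a peak in either library. The cyclins, CDK1 and the CDC25 phosphatases had shared loci at 3 of 7 genes, all at a start. CCNA2 encodes cyclin A2, which partners CDK2 in S phase and CDK1 in G2. Its locus (GRCh38 chromosome 4, 121823753 to 121824000) had fold enrichment of 5.40 in replicate 2 and 4.15 in replicate 3, with −log10 q of 9.68 and 4.29. The summits lay 29 and 16 bp upstream of the start and 13 bp apart. The replicate 2 value exceeded that of 97.0% of the library's peaks, whereas the replicate 3 value exceeded 68.2% of its own. CCNF encodes cyclin F, the substrate receptor of an SCF ubiquitin ligase, and had a pair of shared loci on either side of its start. The upstream locus (chromosome 16, 2428976 to 2429471) had fold 2.99 and 3.74. The downstream locus (chromosome 16, 2429598 to 2429884) had fold 2.85 and 4.37, and the replicate 2 call there was marginal, its −log10 q of 1.54 being close to the library's minimum of 1.32. A replicate 3 peak beyond the other end, with fold 3.68, lay in TEDC2.

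CDC25B, the phosphatase that starts activation of cyclin B and CDK1, had a shared locus at 2 of its annotated starts. At the first start (chromosome 20, 3786430 to 3786965) fold was 3.74 in replicate 2 and 4.43 in replicate 3. This locus lay 85 bp from the start of CENPB, which encodes a centromere DNA-binding protein, so that the peak stood between neighbouring starts. At an internal start (chromosome 20, 3796189 to 3796711) fold was 4.21 and 3.83, with −log10 q of 9.59 and 7.41 on 50 and 43 fragments, the replicate 2 count being the highest of any peak at a mitotic gene in that library. Unshared peaks of CDC25B lay 1011 bp upstream of a start in replicate 2 (fold 3.48), and 1207 bp upstream (fold 3.10) and 212 bp downstream (fold 3.19) in replicate 3. CCNB1, which encodes cyclin B1, had a replicate 2 peak alone, 113 bp upstream of its start, with fold 2.56 and −log10 q of 1.82. CDC25C had a replicate 3 peak alone, 41 bp upstream, with fold 3.57 and −log10 q of 3.34, and this summit lay 130 bp from the start of FAM53C. CCNB2 and CDK1 had no peak in either library, and the nearest summits lay 171928 bp and 44786 bp from these genes in replicate 2.

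Among the mitotic kinases and the chromosomal passenger complex, none of 11 genes had a shared locus and 8 had no peak in either library, where 25.5% of all protein-coding genes had a shared locus and 46.2% a peak in either library. At 11 genes this difference was not tested. The 8 were AURKA, AURKB, PLK1, PLK4, TTK, BUB1B, BIRC5 and INCENP, which encode Aurora and Polo-like kinases, checkpoint kinases and passenger subunits. A replicate 3 peak alone lay 18 bp upstream of the start of BUB1, a spindle checkpoint kinase gene, with fold 3.06 and −log10 q of 2.91. NEK2, a centrosome kinase gene, had a replicate 3 peak 436 bp upstream with fold 3.18, and its −log10 q of 1.74 on 15 fragments (exact 95% Poisson interval 8.4 to 24.7) was the weakest support of the group. CDCA8, which encodes the passenger subunit borealin, had a replicate 2 peak 764 bp upstream with fold 4.16 and −log10 q of 4.94. That summit lay inside AIRIM, 490 bp from its start, and thus closer to the start of that gene than to that of CDCA8.

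Genes of anaphase and mitotic exit had shared loci in 3 of 7 cases. UBE2C encodes the ubiquitin-conjugating enzyme that primes chains for the anaphase-promoting complex, and its locus (chromosome 20, 45812615 to 45813039) had fold 3.46 in replicate 2 and 4.42 in replicate 3. UBE2S, which encodes the enzyme that extends those chains, had fold 3.29 and 3.78 (chromosome 19, 55407592 to 55407845), with summits 115 and 107 bp inside the gene. A further replicate 3 peak lay 356 bp upstream of UBE2S, with fold 4.23 and no overlapping call in replicate 2. The shared locus assigned to CDC20, the activator of the anaphase-promoting complex, lay far from its start (chromosome 1, 43367774 to 43368411). Its summits were 4970 bp outside the gene in replicate 2 and 4904 and 4684 bp outside it in replicate 3, just inside the window, and the locus lay at the start of ELOVL1. Fold there was 4.68 in replicate 2 and 4.36 and 4.19 in replicate 3. PTTG1, which encodes securin, had a replicate 2 peak 37 bp downstream of a start with fold 2.56. Its local background was the highest of any peak at a mitotic gene in that library (11.0, on counts scaled by 0.848). CDCA3 had a replicate 3 peak with fold 3.12 inside the neighbouring gene USP5. SGO1 and SGO2, which encode protectors of centromeric cohesion, had no peak.

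Of the 4 centromere and kinetochore genes, CENPF alone had a shared locus. CENPF encodes a large outer kinetochore protein, and its locus (chromosome 1, 214603020 to 214603331) had fold 2.81 in replicate 2 and 3.64 in replicate 3. The summits were 163 bp apart, one upstream and one downstream of the start, and the −log10 q of 1.58 in replicate 2 was near the lowest of that library. CENPA, which encodes the histone H3 variant of centromeres, had the highest fold of any start peak found in a single library, although the unshared replicate 3 peak of UBE2S had a higher −log10 q (7.45) on more fragments (37). Replicate 2 placed it 19 bp upstream with fold 4.82 and −log10 q of 6.10 on 26 fragments (17.0 to 38.1), and the nearest replicate 3 summit was 53458 bp from the gene. NUF2, which encodes a subunit of the microtubule-binding NDC80 complex, had a replicate 3 peak 159 bp downstream with fold 3.78. CENPE, a kinetochore motor gene, had no peak in either library.

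Of the 8 kinesin genes, 2 had a shared locus and 5 had no peak. KIF23 encodes a motor of the central spindle that is needed for cytokinesis. Replicate 2 had a peak of 533 bp there with fold 4.69 (chromosome 15, 69414244 to 69414776), and replicate 3 split the same stretch into peaks with fold 4.51 and 3.96. The lower of the best values, 4.51, was the highest at any of the 58 genes. It was exceeded at 12.9% of all protein-coding genes with a shared locus. KIF2C, a microtubule-depolymerising kinesin gene, had fold 4.09 in replicate 2 and 2.73 in replicate 3 (chromosome 1, 44739706 to 44739897), and the replicate 3 call was marginal at −log10 q of 1.74, where the library's minimum was 1.31. The replicate 3 peak assigned to KIF18A lay 2132 bp upstream of its start and inside METTL15, with fold 3.49. KIF11, KIF14, KIF20A, KIF20B and KIF4A had none, although KIF4A spans 130783 bp and is the longest of the 58 genes.

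Genes of spindle and microtubule-associated proteins had shared loci at 3 of 12 genes, but at a gene end in 1 case only, that of FAM83D. FAM83D, which encodes a protein that brings casein kinase 1 to the spindle, had nearly equal values in both libraries (chromosome 20, 38926070 to 38926700). Fold was 4.32 in replicate 2 and 4.36 in replicate 3, with −log10 q of 6.96 and 6.91. TACC3, which encodes a spindle protein that stabilises kinetochore fibres, had the widest peaks among the 58 genes, of 954 bp in replicate 2 and 798 bp in replicate 3 (chromosome 4, 1720866 to 1721873). Their fold was 4.58 and 4.36 and their −log10 q 8.51 and 9.21. The summits lay 1004 and 869 bp downstream of the TACC3 start, one just outside and one just inside 1 kb, and the locus lay 244 bp from the start of TMEM129. Beyond the opposite end of TACC3 there was a weaker shared locus with fold 2.81 and 3.95, next to unshared peaks with fold 3.13 in replicate 2 and 3.56 in replicate 3.

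CKAP2, a microtubule-associated protein gene, had its shared locus 4782 bp outside the gene in replicate 2 and 4856 bp outside it in replicate 3, at the start of VPS36 (fold 4.43 and 4.40). A replicate 2 peak with fold 3.20 stood 388 bp upstream of the RefSeq start used, within the span of CKAP2, with no replicate 3 call. GTSE1 had a replicate 2 peak 31 bp downstream of its start (fold 2.64), while its replicate 3 peak, with fold 3.75, lay at the start of TRMU, 4879 bp outside the gene. TPX2, which encodes the activator of Aurora A on the spindle, had a replicate 2 peak with fold 3.13, 120 bp inside the gene end of lower coordinate. SPAG5 had replicate 3 peaks 164 bp upstream of its start (fold 2.95) and beyond its other end near ALDOC (fold 2.75). The replicate 3 peak assigned to NUSAP1, with fold 2.84, lay inside OIP5. HMMR, DLGAP5, ASPM, GAS2L3 and DEPDC1 had no peak. The summits nearest to HMMR lay 3038685 bp away in replicate 2 and 3148070 bp away in replicate 3, the largest such distances among the 58 genes.

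Of the 5 cytokinesis genes, PRC1, which encodes the protein that bundles antiparallel microtubules of the central spindle, had shared loci and the others had not. PRC1 had a locus over its start (chromosome 15, 90994410 to 90994793) with fold 4.82 in replicate 2 and 3.62 in replicate 3. A separate locus 381 and 377 bp downstream (chromosome 15, 90994060 to 90994276) had fold 2.75 and 3.39, with summits only 4 bp apart. CEP55, an abscission gene, had a replicate 3 peak 42 bp upstream of its start with fold 4.16 and −log10 q of 5.12. ANLN, which encodes the contractile ring scaffold anillin, had a replicate 2 peak 213 bp downstream with fold 3.10 and −log10 q of 1.71, inside the overlapping gene MATCAP2. ECT2 and RACGAP1, which act together in placing the cleavage furrow, had none.

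Of the 4 genes of chromosome and nuclear structure, MKI67 and LMNB1 had shared loci at a start. MKI67 encodes Ki-67, the proliferation antigen that coats mitotic chromosomes. Its replicate 2 peak (locus on chromosome 10, 128126055 to 128126608) had fold 5.88, the highest at any of the 58 genes and above 99.0% of the library's peaks. In replicate 3 fold was 4.25, above 72.7% of that library's peaks. The replicate 3 −log10 q of 3.68 lay below the library's median of 3.82. The peaks of MKI67 rested on 28 and 19 fragments before scaling. The local backgrounds, on counts scaled by 0.848 and 0.869, were 3.21 and 3.12, the lowest at the 58 genes in each library. LMNB1, which encodes lamin B1, had fold 4.41 and 3.94 at its shared locus (chromosome 5, 126776646 to 126777170). Further peaks of LMNB1 lay downstream in each library without overlapping, at 1009 bp with fold 4.35 in replicate 2 and at 699 bp with fold 4.54 in replicate 3. NCAPD2, a condensin subunit gene, had 3 replicate 3 peaks beyond its end, near or inside GAPDH, of which the strongest had fold 4.56, the highest of any replicate 3 peak at the 58 genes. TOP2A, the topoisomerase gene of chromosome condensation, had no peak.

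**Figure D2:**
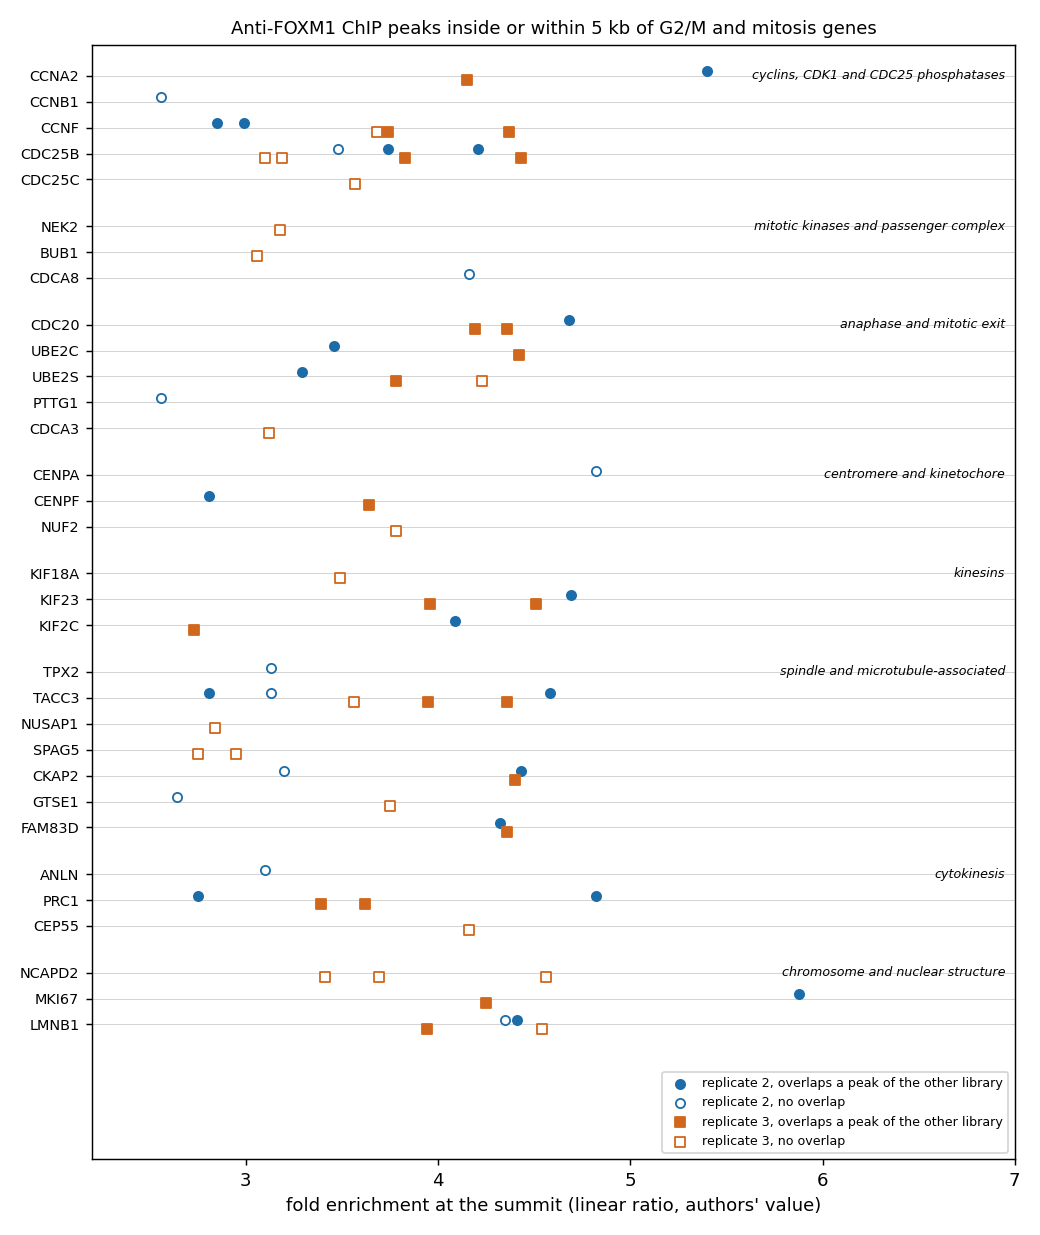
Fold enrichment at the summit (linear ratio, authors' value) of every peak at the 32 mitotic genes that had one, by role, for replicate 2 (blue circles) and replicate 3 (orange squares). Filled symbols overlap a peak of the other library. Values run from 2.56 to 5.88 in replicate 2 and from 2.73 to 4.56 in replicate 3, with MKI67 and CCNA2 highest in replicate 2.

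Over all their peaks, the 58 genes had a median fold of 3.61 in replicate 2 and 3.78 in replicate 3, against 3.76 and 3.78 over all peaks of these libraries. Peaks that overlapped a call of the other library had a median fold of 4.21 in replicate 2 (19 peaks) and 4.15 in replicate 3 (21 peaks). Those without such an overlap had 3.13 (11 peaks) and 3.53 (20 peaks). The strongest shared locus of each of the 15 genes had a lower fold of 2.73 to 4.51 with a median of 3.94, against a median of 3.67 over all protein-coding genes with a shared locus. The values of the libraries were not ordered: fold was higher in replicate 2 at 12 of the 21 overlapping pairs and higher in replicate 3 at 9. Summits of a pair were a median of 66 bp apart (4 to 286 bp), and 16 of the 21 pairs had summits within 100 bp. Single replicate 2 peaks of CDC20 and of KIF23 entered more than 1 pair, so the pairs are not all separate loci. Counting only pairs with summits within 100 bp, 14 genes had a shared locus. That share was 8.54 percentage points above all other protein-coding genes, a difference that was not tested.

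Fragment counts at the summits were small. They were rebuilt from the deposited fold and p and ran from 19 to 50 in replicate 2 and from 15 to 44 in replicate 3, with medians of 28.5 and 26. At each of the 21 overlapping pairs the exact 95% Poisson intervals of the libraries' counts overlapped. At CCNA2, for example, 37 fragments (26.1 to 51.0) in replicate 2 stood beside 24 (15.4 to 35.7) in replicate 3. The intervals cover counting error only. A gene without a peak did not pass the authors' threshold, near a q of 0.05, which at this depth does not show that FOXM1 was absent there.

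**Figure D3:**
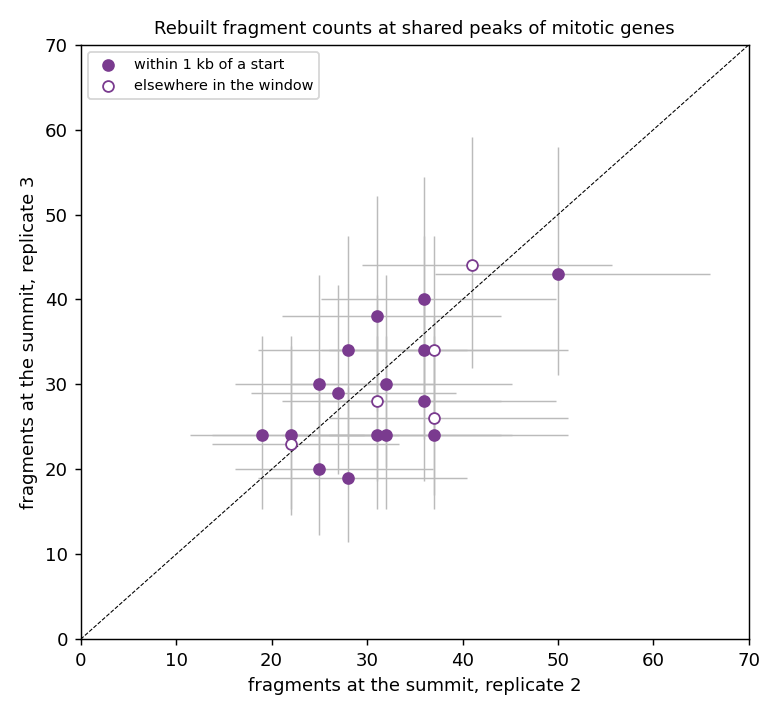
Rebuilt fragment counts at the summit in replicate 2 (horizontal axis) and replicate 3 (vertical axis) for the 21 overlapping peak pairs of the mitotic genes, with exact 95% Poisson intervals. The dashed line marks equal counts, and the points lie on both sides of it, between 19 and 50 fragments in replicate 2 and between 19 and 44 in replicate 3.

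Distances from a RefSeq start were compared with those at all protein-coding genes that had one. Of 27 such peaks of the mitotic genes in replicate 2, 20 had their summit within 1 kb of a start (74.1%), against 67.2% at all genes. Within 250 bp there were 17 (63.0%), against 41.1%, and within 100 bp 10 (37.0%), against 20.4%. Of 39 in replicate 3, 25 were within 1 kb (64.1%), against 66.0%, 17 within 250 bp (43.6%), against 39.8%, and 9 within 100 bp (23.1%), against 20.9%. The shares at the mitotic genes were thus near those at all genes in replicate 3 and above them in replicate 2, a difference that was not tested. Within 1 kb the summits stood on both sides of the start, 12 upstream and 8 downstream in replicate 2, and 14 upstream and 11 downstream in replicate 3. Of the 17 genes with peaks but no shared locus, 14 had a peak within 1 kb of a start (82.4%), against 76.8% of all protein-coding genes with unshared peaks only. Across both libraries, 24 of 71 peaks, at 12 genes, lay closer to the start of another protein-coding gene, 7 in replicate 2 and 17 in replicate 3. The same share over all protein-coding genes is not given here, so this count is not shown to be particular to the mitotic genes. For these 24 peaks, the assignment to one gene or the other was not tested. The assignments closest to the limit of 5 kb were those of CDC20, GTSE1 and CKAP2 given above. The nearest outside it were at AURKA, with summits 10456 and 10423 bp from the gene in replicates 2 and 3.

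**Figure D4:**
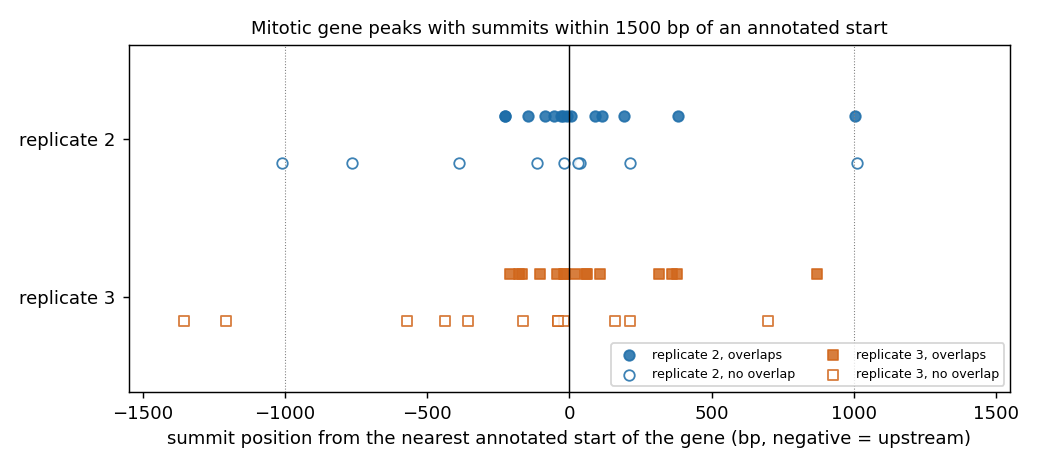
Position of the summit from the nearest annotated start (bp, negative upstream) for peaks of the mitotic genes within 1500 bp of a start, in replicate 2 (above) and replicate 3 (below). Filled symbols overlap a peak of the other library and lie within 381 bp of the start, apart from the summits of TACC3 at 1004 and 869 bp. Dotted lines mark 1 kb.

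Many promoters of the mitotic genes shared sequence features. Peaks were assigned without use of sequence, but how the gene list was drawn up is not stated. Knowledge of these elements may thus have entered the list. A CHR element in either spelling searched was present in 35 of 51 windows (68.6%), against 13.5% of all 15812 protein-coding gene windows of the same length. Within 50 bases of the start, a limit set after seeing the positions, it was present in 28 (54.9%), against 3.64% of all. A CCAAT box was present in 38 (74.5%), against 36.3% of all, and 21 windows (41.2%) held 2 or more, against 12.5%. E2F matches were present in 13 (25.5%), against 17.1% of all. The forkhead motif TGTTTAC was present in 1 window (1.96%), against 2.62% of all. With the spellings TGTTTGC and TATTTAC added, a forkhead match was present in 3 windows (5.88%), against 7.53% of all. Of these, 1 was among the 10 windows of genes with a shared locus at the start and 2 among the 26 with no start peak. All motifs were searched on both strands, and matches of different motifs shared a base in 3 of the 51 windows. A match describes the letters of the window and not a bound site.

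The windows with and without start peaks both held these elements. A CHR element was present in 5 of the 10 windows of genes with a shared locus at the start, in 9 of 15 with a start peak in 1 library and in 21 of 26 with no start peak. MKI67, CCNF, CENPF, KIF23 and PRC1 were the 5 with both. KIF2C had a shared locus and, in the spellings given above with the sequences, none of the 4 kinds of motif in its window. Elements of other spellings were not counted. These counts read the first listed window of each gene. The shared locus of LMNB1 lay upstream of its other start, whose window was not searched. Genes with a CHR and no peak in either library included CCNB2, PLK1, BUB1B, KIF11, DLGAP5 and HMMR. For CCAAT boxes the counts were 7 of 10, 9 of 15 and 22 of 26. Over all protein-coding genes with a shared locus at the start, 7.73% of windows held a CHR and 30.9% a CCAAT box. The median G+C content was 65.3% for mitotic genes with a shared locus at the start, 65.0% with a start peak in 1 library, and 59.3% with none. It was 71.7% over all protein-coding genes with a shared start locus and 62.7% over all windows. The median ratio of observed to expected CpG was 1.04, 0.857 and 0.888 in the mitotic groups in that order, against 0.885 over all protein-coding genes with a shared start locus and 0.763 over all windows. These differences between small groups of genes were not tested.

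**Figure D5:**
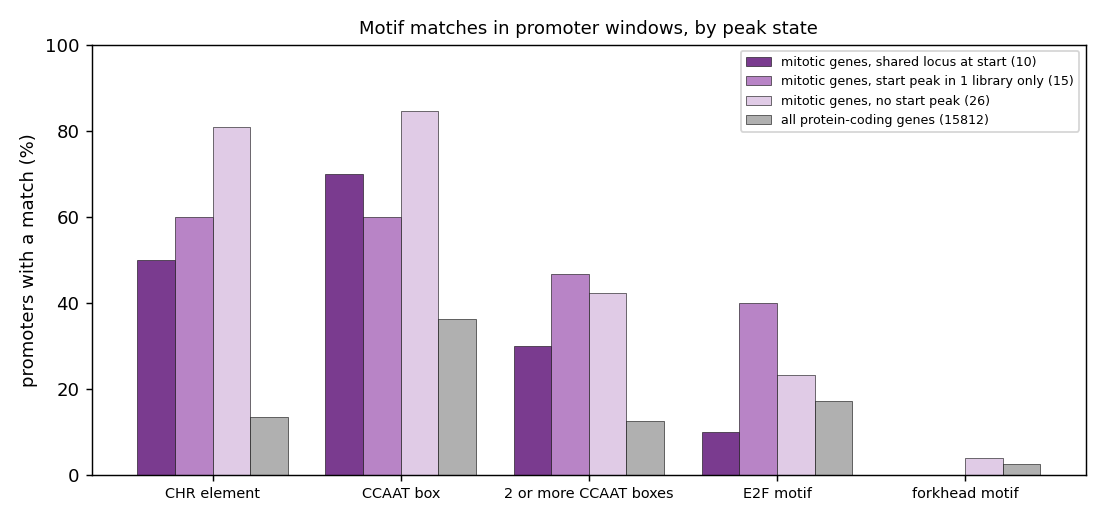
Share of promoter windows (%) with a match to each motif, for mitotic genes with a shared locus at the start (10 genes), with a start peak in 1 library only (15) and with no start peak (26), beside all 15812 protein-coding genes (grey). CHR and CCAAT matches were more frequent in each mitotic group than over all genes, with CHR in 80.8% of the windows without a start peak.

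A list of 84 other mitosis genes was read for comparison. Of these 30 had a peak in replicate 2 (35.7%), 39 in replicate 3 (46.4%) and 26 a shared locus (31.0%), near the 33.3%, 41.3% and 25.5% of all protein-coding genes. The groups below were not tested against these shares. Regulators of the 58 genes themselves were among them: of 9 genes of MuvB, B-MYB and NF-Y, 5 had a shared locus, led by LIN54 (fold 4.10 in replicate 2 and 5.58 in replicate 3) and NFYC (3.74 and 4.49). Of 17 genes of the spindle, the centrosome and mitotic entry, 9 had one, with KIFC1 (5.76 and 4.97) and KIF22 (4.89 and 5.03) highest, at loci more than 1 kb from their own starts. Of 15 anaphase-promoting complex genes 4 had one, led by ANAPC11 (4.95 and 4.74) and ANAPC2 (3.45 and 3.74). Of 9 spindle checkpoint genes 2 had one, TRIP13 (4.78 and 4.02) and MAD1L1 (5.47 and 3.62). The MAD1L1 summits lay 71088 and 70944 bp from its start, deep inside a gene of 417151 bp. Of 20 kinetochore genes 3 had one, led by CENPM (3.98 and 4.87) and CENPN (3.94 and 3.93). Of 14 condensin and cohesin genes 3 had one, led by NCAPH2 (5.40 and 3.87) and STAG1 (3.41 and 3.71). The NCAPH2 peaks overlapped by 68 bp only, with summits 372 bp apart. Its replicate 3 peak also overlapped a replicate 2 peak with fold 2.67, whose summit lay 78 bp away. Several of these loci lay in or at other genes. That of CENPM lay in TNFRSF13C, that of CENPN at the start of ATMIN and that of KIF22 in MAZ. The NCAPH2 pair with fold 5.40 and 3.87 lay in TYMP, 106 bp from the start of SCO2. KIFC1 had its locus next to PHF1, and ANAPC11 in the overlapping gene ALYREF. Those of ANAPC2 and TRIP13 lay next to the starts of SSNA1 and BRD9.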

How the data were processed

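ChIP-seq peak lists of 2 anti-FOXM1 libraries of Huh7 cells were used, of 3 samples in all. The build GRCh38 and the tools BWA, MACS2 2.2.7.1 and CASAVA 1.4 are named, per the submitters' processing notes, without a role for each. Filters, duplicate handling and the control of peak calling are not given in the sources used here. Peaks were called per library by the authors, whose deposited columns hold a fold enrichment (a linear ratio with a pseudocount of 1), a −log10 p and a −log10 q for each summit. Not used was the deposited score, the whole part of 10 times −log10 q. Summit positions came from the deposited offset column (unit: other). Minimum −log10 q values of 1.32 (replicate 2) and 1.31 (replicate 3) stand close to the 1.3 of a q of 0.05.

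Fragment counts were rebuilt from fold and −log10 p as whole numbers under a Poisson background, with a scale of 0.848 for replicate 2 and 0.869 for replicate 3. This step was chosen after seeing the data. Fold relates the scaled count to the background, so that backgrounds are on that scale while fragment counts are unscaled. All peaks (100%) came within 0.001 of the deposited −log10 p. Total reads per library were not used here.

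Genes were 19974 protein-coding RefSeq genes (GRCh38.p14), of which 15812 had a start in the promoter table. The first listed window of each gene was used for motifs, and all listed starts for distances. Peaks overlapping by at least 1 bp, both summits in the window, made a shared locus. Shares have exact Clopper-Pearson intervals. No test was run, since the series has 1 group of 2 ChIP libraries. The genes and lists were chosen with earlier results of these data known. Every gene of the list is accounted for, with full values where a locus was shared, and up to 2 genes are named per group of other mitosis genes, by the lower fold. Alternatives were stricter thresholds, other windows, other definitions of a shared locus, each library alone and other motif spellings. Peak assignment and fragment rebuilding were tested on simulated data. Python 3.11.15 was used with numpy 2.4.6, pandas 2.3.3, SciPy 1.17.1 and matplotlib 3.10.9.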

Additional observations from a re-analysis of the deposited data

How the results depend on the processing

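With −log10 q of at least 5, 6 genes had a shared locus within 5 kb and 3 at a start, and 12 genes had peaks in replicate 2 and 12 in replicate 3. With fold of at least 4 these counts were 7, 4, 13 and 14. Shared loci then differed from other protein-coding genes by 3.99 percentage points within 5 kb and 0.458 at starts under the q limit. Under the fold limit the differences were 3.75 and 0.811. For counts of a single library under these limits, or in gene bodies alone, no share over all genes is given here. With gene bodies alone, 8 genes had a shared locus, 14 a replicate 2 peak and 11 a replicate 3 peak. With a library left out, 22 to 26 genes had a peak within 5 kb, and 20 had one at a start with either library left out. The difference from other protein-coding genes in shared loci within 5 kb, 0.36 percentage points, ran from -2.34 for gene bodies alone to 8.54 with summits within 100 bp. At starts it was 0.681 and ran from -0.106 within 5 kb of the start to 7.5 with summits within 100 bp. With replicate 3 left out, so that replicate 2 peaks were counted in place of shared loci, it was 8.09. For 2 or more CCAAT boxes the difference of 28.7 percentage points became 10.6 with matches on the strand of the gene alone, which by construction leaves out matches on the opposite strand. The CHR difference of 55.3 was 45.0 or more under each of its 3 alternatives, one of them, matches within 50 bases of the start, chosen after seeing the data. The other causes were not tested. Summits with medians of 28.5 and 26 fragments limit the detection of weak peaks. No paired analysis was possible because the series has a single ChIP group and its results come from no test.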
